A study of Mus musculus with 6 samples.

Results

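Hepatocyte nuclei of lactating mice were compared with those of mice at the start of gestation. The comparison took the 4 libraries of G0 (day 0 of gestation) and P7L (day 7 after birth, lactating), which hold 1042 of the 1567 nuclei in the 6 libraries of the series, and the remaining libraries are from G14.5 (gestation, with the day in the name). All libraries came from female, wild-type C57BL/6J mice mated at about 8 weeks of age, and the series follows how the hepatocyte state changes through pregnancy and lactation. Each stage has 1 library of nuclei labelled as isolated from liver tissue and 1 labelled as isolated by perfusion, called replicate 1 and replicate 2 here. The labels name no animal, so whether a library holds 1 mouse or several is not known, and p-values measure only the spread between these libraries, which may be technical. The titles and library names say nuclei, whereas the extraction text describes whole hepatocytes from a collagenase-perfused liver, picked by hand into plates for Smart-seq3xpress, which reads whole transcripts of single cells. RNA per nucleus cannot be measured here, because the spike-in rows held 0 reads, so every level below is a share of a library's reads.

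Hepatocytes are the main parenchymal cells of the liver. They secrete most plasma proteins, synthesise cholesterol and bile acids, detoxify ammonia and oxidise or store fat. Growth hormone and prolactin act on them through paired receptors, the kinase JAK2 and the transcription factor STAT5, and the pattern of growth hormone release sets many differences between female and male liver. During lactation the liver supplies a mammary gland that draws on glucose, lipids and amino acids.

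The G0 libraries held 252 (liver tissue) and 184 (perfusion) nuclei, and the P7L libraries 308 and 298, with 226030591 to 327263106 reads per library. Reads of 10 hepatocyte markers made up 1.67% and 1.59% of all reads at G0 and 1.74% and 1.84% at P7L, liver tissue first as in all pairs of values below. Endothelial markers together had 27.4 and 43.4 CPM (read counts scaled to a common library total) at G0 and 26.8 and 20.9 at P7L. Kupffer cell markers had 19.4 and 11.6 against 18.3 and 9.58, and stellate cell markers 17.2 and 30.8 against 18.8 and 11.2. T and NK cell markers had 3.5 and 4.81 against 6.21 and 7.77, and B cell markers 5.03 and 2.45 against 3.82 and 2.81. Cholangiocyte markers had 267 and 244 against 216 and 252, the highest of the non-hepatocyte lists. Lrat (stellate), Trac (T cell), Ms4a1 and Rag1 (B cell) and Alas2 (erythroid) were at 0 in all 4 libraries. Other members of their lists had reads, and Gzma, a T and NK cell marker, was called lower at P7L. Hepatocyte marker reads reached 1% in 238 of 252 and 154 of 184 nuclei at G0. At P7L they did so in 300 of 308 and 287 of 298. Once every nucleus was reduced to 250000 reads, the median number of genes per nucleus was 5661 and 5386 at G0 and 6702 and 6763 at P7L. The 100 most abundant genes of a nucleus took a median of 29.3% and 30.5% of its reads at G0 and 24.1% and 24.5% at P7L. Reads were thus spread over more genes at P7L, and the part of this in the differences below was not tested.

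Across 15015 tested genes, 438 differed between P7L and G0 at an edgeR adjusted p under 0.05, which is 2.92% of the genes tested. Of these, 234 were higher at P7L (1.56%) and 204 lower (1.36%). These shares are the background for each count of called list members below, and a gene can be in more than 1 list. The higher genes changed more, with a median log2 fold change of 1.68 against -1.13 for the lower ones, and 187 higher and 123 lower genes differed at least 2-fold. All 438 had the same direction in liver tissue and in perfusion, as had 66.1% of all tested genes. In 436 of them the levels of the P7L libraries did not overlap those of the G0 libraries, which was so for 54.8% of all tested genes, and Dusp1 and Mt1 were the exceptions. Scaled by library size alone, 303 genes were higher and 171 lower, so this split depends on the scaling. The call of many genes needs both lactation libraries: without the P7L liver tissue library 67 of the 438 genes remained called, and without the P7L perfusion library 46. Without the G0 liver tissue library 311 remained, and without the G0 perfusion library 281. None of the 438 reversed direction under any of the 19 alternatives. Among 12685 tested protein-coding genes 192 were higher and 188 lower, whereas among 409 tested lincRNA genes 12 were higher and 2 lower.

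**Figure D1:**
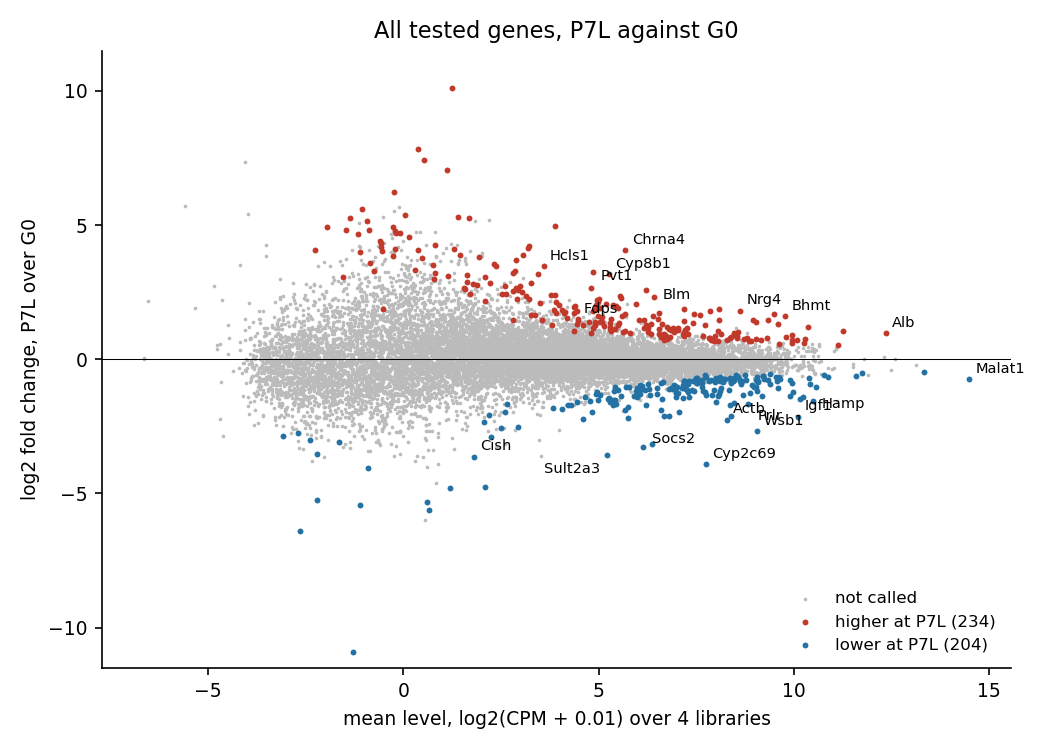
Each point is 1 of 15015 tested genes, with its mean level over the 4 libraries as log2(CPM + 0.01) on the horizontal axis and the edgeR log2 fold change of P7L over G0 on the vertical axis. The 234 genes called higher (red) include genes of low level with large changes, whereas the 204 called lower (blue) lie mostly at middle and high levels.

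**Figure D2:**
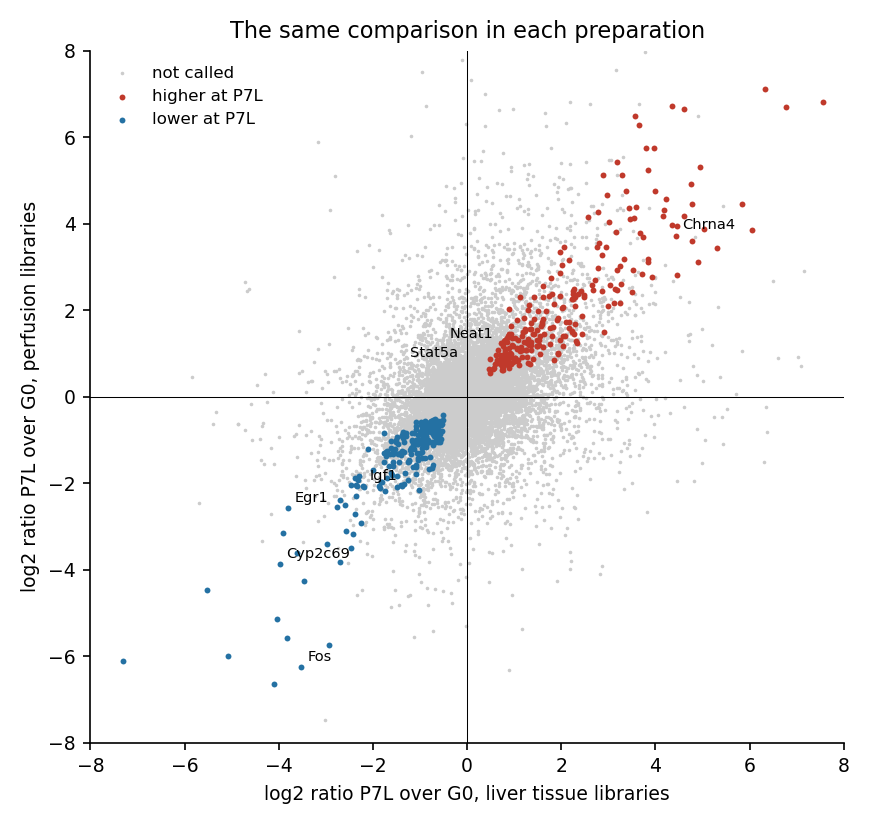
Each point is 1 tested gene, with the log2 ratio of P7L over G0 in the liver tissue libraries on the horizontal axis and in the perfusion libraries on the vertical axis. All called genes lie in the lower left (blue) or upper right (red) part of the plot, Neat1 and Stat5a have opposite signs in the preparations, and 8 genes more than 8 from 0 on an axis are not drawn.

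Of 20 tested genes of growth hormone and prolactin signalling, 5 were lower in lactation: Igf1, Socs2, Cish, Prlr and Cux2. The other 15 were not called. The list's median log2 fold change was -0.58 (-1.20 in liver tissue, -0.47 in perfusion), against 0.007 for all tested genes. Levels are normalised read counts as CPM, and changes are log2 fold changes of P7L over G0 ± their standard error (SE), with n = 2 libraries per stage throughout.

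The receptors and the kinase came first in the pathway. Prlr, the prolactin receptor, had 1887 and 1445 CPM at G0 against 605 and 583 at P7L (-1.49 ± 0.15, edgeR adjusted p = 0.00823). It was lower at P7L in both preparations, as were all genes called lower. Reads were found in nearly all nuclei at both stages, with a median per nucleus of 1154 and 1140 CPM at G0 and 521 and 425 CPM at P7L. Its level at G14.5 was 10940 and 13120 CPM. Ghr, the growth hormone receptor, had 6636 and 6470 CPM at G0 and 5268 and 4621 CPM at P7L and missed the threshold (-0.41 ± 0.10, edgeR adjusted p = 0.0735). Jak2 had 64.3 and 69.9 against 69.5 and 75.7 CPM (0.11 ± 0.17). Stat5b, the STAT5 form that carries most of the growth hormone signal in liver, had 272 and 247 against 148 and 180 CPM (-0.67 ± 0.15, edgeR adjusted p = 0.0676). Of these 4 components of the signalling chain the prolactin receptor passed the test and the others did not, and differences between the genes were not tested. Ghr, Jak2, Stat5a and Stat5b were chosen after their values were seen.

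The targets and feedback inhibitors showed the larger changes. Cish, which encodes a suppressor of cytokine signalling, had reads in 28.3% (95% interval 22.6% to 34.5%) and 24.9% (18.8% to 31.8%) of nuclei at G0 but in 4.08% (2.13% to 7.02%) and 3.72% (1.87% to 6.55%) at P7L. Its level went from 6.08 and 6.83 CPM to 0.49 and 0.56 CPM (-3.63 ± 0.48, edgeR adjusted p = 0.0188). Intervals are exact Clopper-Pearson intervals over the nuclei of 1 library and cover counting error only. Socs2, another suppressor of the same family, had reads in 72.2% and 82.3% of nuclei at G0 and in 31.0% and 29.4% at P7L, and its median per nucleus went from 21.5 and 58.9 CPM to 0 in both libraries. Igf1, the growth factor through which the liver passes on the growth hormone signal, stayed detectable in 98.3% and 99.3% of P7L nuclei, while its median per nucleus was 1273 and 1231 CPM at G0 and 241 and 243 CPM at P7L. For Socs2 the summed level went from 98.9 and 158 to 15.2 and 11.2 CPM. The middle 50% of nuclei for Igf1 lay between 471 and 2345 CPM (liver tissue) and 353 and 2575 CPM (perfusion) at G0 and between 72.1 and 593 CPM and 99.2 and 602 CPM at P7L, so the nuclei of the stages overlapped. Cish and Socs2 thus had reads in fewer nuclei at P7L, whereas Igf1 kept reads in nearly all nuclei at a lower median. Cux2, a female-biased transcriptional repressor, had 768 and 595 CPM at G0 against 178 and 256 at P7L (-1.67 ± 0.21, edgeR adjusted p = 0.0153). Without the P7L liver tissue library 3 of the 5 genes remained called, and without the P7L perfusion library 4.

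The start of Cish is shown because it carries the letters of the STAT5 site within the window around its start. The sequence runs 5′ to 3′ on the plus strand at chr9:107296409-107296678 (GRCm38.p6, RefSeq), from 250 bases before the start site to 20 bases after it. Capitals mark the matches to TTCNNNGAA, a motif that is its own reverse complement, so that 1 search covers both strands.
Cish: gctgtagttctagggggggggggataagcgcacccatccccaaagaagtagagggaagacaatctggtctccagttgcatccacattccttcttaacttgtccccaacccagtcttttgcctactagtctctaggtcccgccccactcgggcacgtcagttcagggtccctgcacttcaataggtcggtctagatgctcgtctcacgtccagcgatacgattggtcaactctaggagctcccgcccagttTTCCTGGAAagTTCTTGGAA
It holds 2 matches, and the first begins at the start site. Searched RefSeq windows ran from 250 bases before the start site to 50 after it, and 8.3% of all 32851 hold the motif. Counted by gene, 8.54% of the 10600 tested genes with a window had a match in any of their windows. The motif was so found in 12.2% of the 156 such genes called lower and in 7.41% of the 162 called higher. A match describes these letters and is not evidence of binding.

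Genes with female-biased expression in liver were lower more often than higher, and the called male-biased genes were higher. Of 29 tested female-biased genes 11 were lower and 2 higher (Cyp17a1 and Sult2a1), with a median of -0.75. Of the 11, Cux2 was counted in the growth hormone list above too. Cyp2c69, Cyp2b13, Cyp3a16 and Cyp3a41a are counted again in the cytochrome lists below, so these counts are not independent. Cyp3a41a and Cyp3a41b, whose reads can be mixed, count as 2 of the 11. Of 16 tested male-biased genes 4 were higher and 0 lower, with a median of 0.26, and 11 had a positive log2 fold change. Sult2a3, a sulfotransferase of steroids, had 81.3 and 55.4 CPM at G0 against 5.42 and 6.24 at P7L (-3.55 ± 0.33, edgeR adjusted p = 0.00543). It had reads in 49.0% and 47.0% of nuclei at G0 and in 21.4% and 23.0% at P7L, and it was called in all 19 alternatives. Slc22a27, an organic anion carrier, had 103 and 74.1 against 20.01 and 17.97 CPM (-2.21 ± 0.20, edgeR adjusted p = 0.00543), and 30.5% of its 50-base stretches occur in other genes, mostly Slc22a29. Cyp2b13 had 168 and 259 against 46.6 and 59.9 CPM (-1.98 ± 0.17, edgeR adjusted p = 0.00411). In these 3 genes both P7L libraries lay below both G0 libraries, as the libraries of the stages did not overlap in 436 of the 438 called genes. The flavin monooxygenase Fmo2 (-1.35 ± 0.20) was lower too. Among the male-biased genes, Gstp1, a glutathione transferase, had 18.3 and 14.9 CPM at G0 against 66.4 and 66.0 at P7L (2.01 ± 0.20, edgeR adjusted p = 0.00774). Its transcript shares 62.3% of its 50-base stretches with other genes, chiefly Gstp2, so reads of the pair can be mixed. Cyp7b1, an oxysterol hydroxylase, rose from 142 and 143 to 276 and 249 CPM (0.88 ± 0.13, edgeR adjusted p = 0.0245), and Serpina1e (1.04 ± 0.18) and Susd4 (3.27 ± 0.54) rose as well. The Serpina1e transcript shares 35.6% of its 50-base stretches with other genes, mostly Serpina1d. Susd4 had low levels at G0, 2.14 and 0.735 CPM. Of the 13 called female-biased genes 6 remained called without P7L replicate 1 (liver tissue) and 5 without P7L replicate 2 (perfusion). Of the 13, 8 remained without the G0 perfusion library. Of the 4 male-biased genes most lost their calls without the P7L liver tissue library, and all did without the P7L perfusion library. DESeq2 called 6 of the male-biased list higher and 1 lower, and limma-voom 3 higher and 0 lower.

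The Cyp2c genes, a family of drug- and steroid-metabolising cytochromes P450, had 5 of 14 tested members lower and none higher. The 5 lie on chromosome 19 between 39608842 and 40187333 on GRCm38 in the order Cyp2c67, Cyp2c68, Cyp2c69, Cyp2c37 and Cyp2c70. Cyp2c69 had reads in 98.3% of nuclei in both G0 libraries and in 82.3% and 74.3% at P7L, and its median per nucleus went from 183 and 143 CPM to 16.2 and 10.1 CPM. The log2 fold changes of its neighbours were smaller in size. Cyp2c67 went from 88.8 and 83.5 to 33.4 and 32.8 CPM (-1.38 ± 0.20), and Cyp2c68 from 333 and 255 to 119 and 134 CPM (-1.21 ± 0.17, edgeR adjusted p = 0.0232 for both). Cyp2c37 went from 185 and 168 to 72.9 and 80.9 CPM (-1.20 ± 0.16, edgeR adjusted p = 0.02). Cyp2c70, whose product makes the muricholic bile acids of mice, went from 582 and 507 to 112 and 137 CPM (-2.13 ± 0.15, edgeR adjusted p = 0.00305). Both P7L libraries were below both G0 libraries for each of the 5 genes, as for nearly all genes called lower. Only Cyp2c69 and Cyp2c70 remained called without either P7L library in turn. Transcripts of Cyp2c69, Cyp2c67 and Cyp2c68 share 54.8%, 52.8% and 43.3% of their 50-base stretches with other genes, most with Cyp2c40, so their counts are uncertain.

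The promoters of Cyp2c69 and Cyp2c68 are shown because these close copies differed in the size of their change. Both run 5′ to 3′ on the minus strand, from RefSeq on GRCm38.p6, and cover the 250 bases before the start site, at chr19:39886770-39887019 for Cyp2c69 and chr19:39741102-39741351 for Cyp2c68. Capitals in the second mark the bases substituted relative to the first.
Cyp2c69: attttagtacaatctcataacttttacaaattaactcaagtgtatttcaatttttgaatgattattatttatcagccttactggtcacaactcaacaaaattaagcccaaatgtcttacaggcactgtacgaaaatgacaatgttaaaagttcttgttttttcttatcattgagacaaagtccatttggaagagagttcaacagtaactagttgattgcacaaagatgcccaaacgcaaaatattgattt
Cyp2c68: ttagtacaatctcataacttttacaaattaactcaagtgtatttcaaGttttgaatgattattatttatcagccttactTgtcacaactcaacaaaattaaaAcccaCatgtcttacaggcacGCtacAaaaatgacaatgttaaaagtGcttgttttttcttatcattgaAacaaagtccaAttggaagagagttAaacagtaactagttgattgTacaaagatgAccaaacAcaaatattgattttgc
Over 246 aligned bases 14 were substituted, an identity of 94.3%. The aligned part of the Cyp2c67 window had an identity of 93.5% over 199 bases, and that of Cyp2c37 73.9% over 188 bases.

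Among other cytochromes P450 of drug metabolism 7 of 28 tested members were lower and 1 was higher. A second neighbourhood, on chromosome 5 from 145436309 to 145879964, held Cyp3a16, Cyp3a41b, Cyp3a41a and Cyp3a11. Cyp3a11, the main xenobiotic-metabolising member, had 148 and 158 CPM at G0 against 42.6 and 40.2 at P7L (-1.90 ± 0.22, edgeR adjusted p = 0.014). Cyp3a41a and Cyp3a41b share 98.6% and 93.5% of their 50-base stretches, mostly with each other, so reads of the pair can be mixed. Cyp2e1, a pericentral enzyme that oxidises ethanol and acetone, went from 1257 and 1464 to 538 and 526 CPM (-1.35 ± 0.12, edgeR adjusted p = 0.0042). Its level was 385 and 407 CPM at G14.5. Cyp2d40 was the higher one, from 14.49 and 15.89 to 73.9 and 82.5 CPM (2.36 ± 0.18, edgeR adjusted p = 0.00319), and it had reads in 37.6% and 40.3% of nuclei at G0 and in 85.7% and 80.4% at P7L. Without the P7L liver tissue library 4 of the 8 remained called, and without the P7L perfusion library 3. Of 33 tested conjugating enzymes 5 were higher (Gsta1, Gstm3, Gstp1, Gstt2 and Sult1a1) and Ugt2a3 was lower (-1.25 ± 0.23). Gsta1 was at 0.0177 and 0.0199 against 0.597 and 2.69 CPM, with reads in 0.42% and 1.1% of G0 nuclei and 7.48% and 6.76% of P7L nuclei. It met the filter for testing, reads in 5% of nuclei in 2 libraries, only through the P7L libraries. Of its 50-base stretches 89.7% occur in other genes, chiefly Gm3776. Gstt2, a glutathione transferase, rose from 98.2 and 89.8 to 191 and 232 CPM (1.17 ± 0.17, edgeR adjusted p = 0.0228). Ugdh, which makes the UDP-glucuronic acid used in glucuronidation, had 155 and 136 CPM at G0 against 388 and 404 at P7L (1.45 ± 0.14, edgeR adjusted p = 0.0066), and it was chosen after its values were seen. Of the 6 called conjugating enzymes 2 remained called without the P7L liver tissue library, 0 without the P7L perfusion library and 2 without the G0 perfusion library. The carboxylesterases Ces3a (-1.14 ± 0.19), Ces3b (-1.24 ± 0.20) and Ces1c (-0.90 ± 0.10), also chosen after their values were seen, were lower. Cyp3a16, Cyp3a41a, Ces3a and Ces3b lost their calls without the G0 perfusion library.

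**Figure D3:**
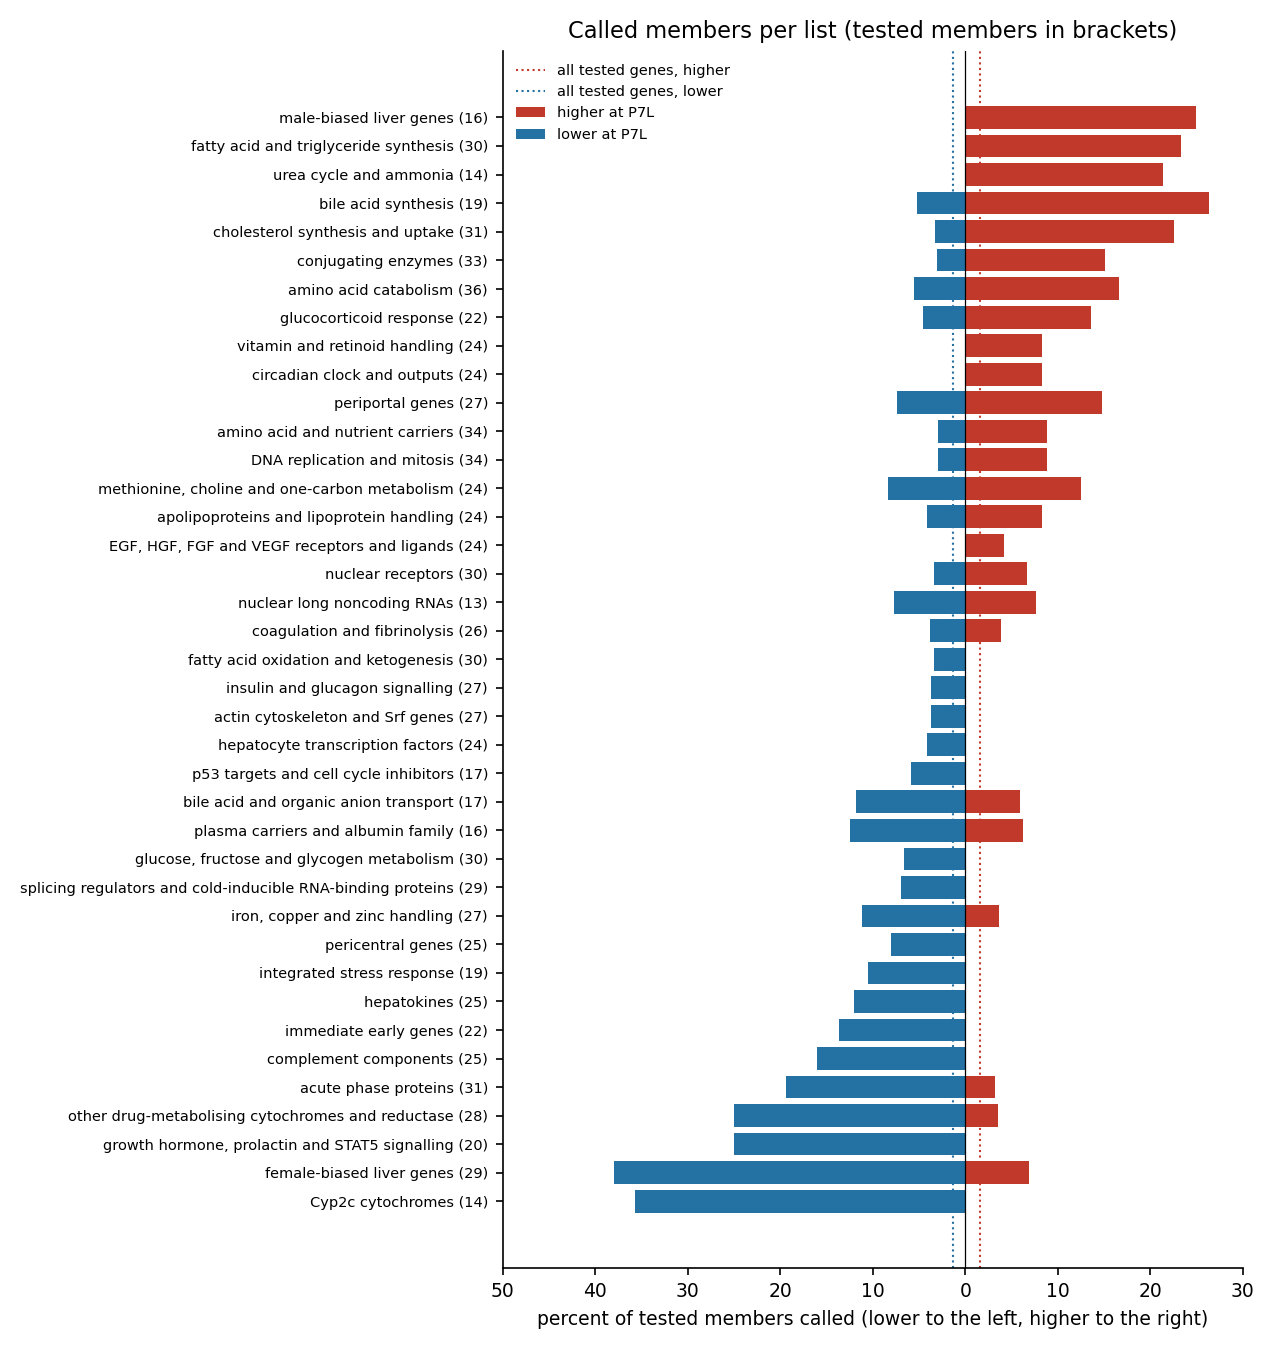
For each list with a called member, the bar to the right is the percent of tested members called higher at P7L and the bar to the left the percent called lower, with the number of tested members in brackets. The dotted lines mark the shares among all tested genes, 1.56% higher and 1.36% lower.

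Of 31 tested genes of cholesterol synthesis and uptake 7 were higher, 1 was lower and 23 were not called, with a median of 0.58. Fdps, which makes farnesyl diphosphate, had 26.8 and 21.4 CPM at G0 against 109 and 89.7 at P7L (2.05 ± 0.17, edgeR adjusted p = 0.00373), and its share of nuclei with reads went from 55.7% and 35.9% to 89.8% and 89.5%. Pmvk, a kinase of the mevalonate pathway that leads to it, had 24.0 and 24.7 against 81.85 and 75.04 CPM (1.68 ± 0.22, edgeR adjusted p = 0.0188). The P7L libraries were the higher pair for both enzymes, as for nearly all genes called higher. Sqle (1.62 ± 0.24), Msmo1 (1.42 ± 0.18) and Fdft1 (1.01 ± 0.18), which act further down, rose too, as did Scap (0.82 ± 0.16), the escort of the transcription factor SREBP. Insig1, the protein that holds SCAP back, fell by 0.92 ± 0.11 on the log2 scale, from 776 and 975 to 435 and 488 CPM (edgeR adjusted p = 0.0141). Of the 8 called genes only Fdps remained called without either P7L library, and Fdft1 and Scap lost their calls without the G0 perfusion library too.

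Of 19 tested genes of bile acid synthesis edgeR called 5 higher and 1 lower, against 1.56% higher and 1.36% lower over all tested genes. The list's median was 0.17 (0.20 in liver tissue, -0.005 in perfusion), and DESeq2 called 6 higher and 4 lower. Cyp8b1, the sterol hydroxylase that directs synthesis to cholic acid, had reads in 19.8% and 15.5% of nuclei at G0 and in 79.6% and 69.6% at P7L. Cyp7a1, the rate-limiting enzyme, had reads in 62.5% and 63.0% of nuclei at G0 and in 95.2% and 91.9% at P7L, at 81.9 and 126 CPM against 413 and 297 CPM. Both genes were therefore found in more nuclei in lactation. Cyp7b1 was described above. Amacr, a racemase of side-chain oxidation, rose from 68.9 and 70.0 to 125 and 124 CPM (0.84 ± 0.16, edgeR adjusted p = 0.0434), and Slc27a5, which activates bile acids, from 240 and 301 to 437 and 502 CPM (0.80 ± 0.14, edgeR adjusted p = 0.0334). The member called lower by edgeR was Cyp2c70. Of the bile acid carriers, Slc10a1, which takes up bile acids from blood, rose from 366 and 406 to 596 and 710 CPM (0.76 ± 0.12, edgeR adjusted p = 0.026). Abcb11, the export pump into bile, went from 932 and 890 to 560 and 597 CPM (-0.66 ± 0.11, edgeR adjusted p = 0.0317), and the membrane flippase Atp8b1 from 173 and 131 to 70.6 and 69.9 CPM (-1.10 ± 0.18, edgeR adjusted p = 0.0317). The uptake carrier and the export pump thus changed in opposite directions. Of the 6 called synthesis genes 2 remained called without P7L replicate 1 (liver tissue) and 3 without P7L replicate 2 (perfusion), and of the 3 carriers none did in either case. Amacr lost its call without either G0 library, and Slc27a5 and Atp8b1 without the G0 liver tissue library.

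Fatty acid and triglyceride synthesis genes rose in 7 of 30 tested members, with a median of 0.79 for the list. A positive log2 fold change was seen in 23 of the 30, and the lowest was that of Srebf1 at -1.24, which was not called. Elovl6, an elongase of saturated fatty acids, had 302 and 216 CPM at G0 against 695 and 760 at P7L (1.48 ± 0.24, edgeR adjusted p = 0.0301). Thrsp, a lipogenic regulator, had 494 and 1110 against 1260 and 2367 CPM (1.22 ± 0.14, edgeR adjusted p = 0.0122), with the perfusion library higher at each stage. Acss2, which makes acetyl-CoA from acetate, had 93.2 and 101 against 209 and 192 CPM (1.04 ± 0.17, edgeR adjusted p = 0.0284), and its gene overlaps others on the opposite strand. Each gene was higher in lactation within each preparation, as were all genes called higher. Gpam (1.18 ± 0.19), which starts triglyceride synthesis, Pnpla3 (1.16 ± 0.16), a lipid droplet protein, Me1 (0.87 ± 0.15), which supplies NADPH, and Lpin1 (0.80 ± 0.13), a phosphatidate phosphatase, were the others. The Me1 transcript shares 26.5% of its 50-base stretches with other genes, mostly Gm7049. Pnpla3 stood at 34.1 and 55.7 CPM at G0 and 81.4 and 117 CPM at P7L, beside 1029 and 1105 CPM at G14.5. Lipc, the secreted hepatic lipase, was lower, from 562 and 514 to 179 and 169 CPM (-1.63 ± 0.12, edgeR adjusted p = 0.00305), while Pltp (1.73 ± 0.29), a phospholipid transfer protein, and Apoc2 (1.08 ± 0.19), the cofactor of lipoprotein lipase, rose. The Apoc2 transcript shares 88.2% of its 50-base stretches with a read-through gene. In fatty acid oxidation and ketogenesis 1 of 30 tested members was called, against 2.92% of all tested genes. This was Cyp4a14, an omega-hydroxylase of fatty acids, which was lower (-1.58 ± 0.19, edgeR adjusted p = 0.0141). Of the 7 lipogenic genes 1 (Thrsp) remained called without P7L replicate 1 (liver tissue) and 0 without P7L replicate 2 (perfusion). Me1, Lpin1 and Pltp lost their calls without the G0 perfusion library and Apoc2 without the G0 liver tissue library. Of the called genes outside this list, Lipc remained called without either P7L library.

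In the urea cycle and ammonia list 3 of 14 tested members were higher and 11 were not called, with a median of 0.30. Asl, argininosuccinate lyase, had 1552 and 1577 CPM at G0 against 2702 and 3897 at P7L (1.04 ± 0.16, edgeR adjusted p = 0.0249). Ass1, argininosuccinate synthase, had 722 and 662 against 1323 and 1238 CPM (0.89 ± 0.13, edgeR adjusted p = 0.0245), and shares 55.3% of its 50-base stretches with Gm5424. Slc25a13, the mitochondrial carrier that brings aspartate to this step, had 1839 and 1841 against 2595 and 2682 CPM (0.52 ± 0.10, edgeR adjusted p = 0.0391). These 3 supply and carry out the cytosolic steps that form and split argininosuccinate. The mitochondrial enzymes Cps1 (0.07 ± 0.13) and Otc (-0.09 ± 0.12), as well as Arg1 (0.45 ± 0.14), which releases urea, did not pass the test, and Cps1 and Otc were chosen after their values were seen. None of the 3 remained called without either P7L library, and Slc25a13 lost its call without the G0 perfusion library as well.

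Of 36 tested genes of amino acid catabolism 6 were higher and 2 lower, 28 were not called and the list's median was -0.11. Bhmt, which remethylates homocysteine with betaine, had 432 and 431 CPM at G0 against 1281 and 1350 at P7L (1.60 ± 0.15, edgeR adjusted p = 0.00605), and it remained called without either P7L library. Cbs, which instead sends homocysteine to cysteine, had 150 and 141 against 55.3 and 49.9 CPM (-1.47 ± 0.20, edgeR adjusted p = 0.0223). Chka, the choline kinase at the entry to phosphatidylcholine synthesis, had 218 and 262 against 99.0 and 113 CPM (-1.18 ± 0.12, edgeR adjusted p = 0.00774). At the homocysteine branch Bhmt was thus higher and Cbs lower, while the level of Chka fell. In the list of methionine, choline and one-carbon genes, 3 of 24 tested members were higher (Bhmt, Aldh1l1 and Gldc). Cbs and Chka were the 2 lower ones, and 19 were not called, with a median of 0.35. Unlike Bhmt, Cbs and Chka lost their calls without either P7L library. Of genes that break down tryptophan, Tdo2 rose from 554 and 719 to 1059 and 1220 CPM (0.84 ± 0.14, edgeR adjusted p = 0.0317), as did Ido2 (0.91 ± 0.15). Tat (0.97 ± 0.15) and Hgd (0.72 ± 0.10), which act on tyrosine, rose as well. Gpt2, an alanine transaminase, rose by a log2 fold change of 0.59 ± 0.11, and the glycine cleavage gene Gldc by 1.05 ± 0.17. Agxt, which detoxifies glyoxylate (-1.17 ± 0.22), and Cdo1, which oxidises cysteine (-0.78 ± 0.13), were lower. Slc38a4, a carrier of neutral amino acids, rose from 740 and 749 to 1146 and 1301 CPM (0.71 ± 0.13, edgeR adjusted p = 0.0391). Gldc and Slc38a4 lost their calls without either P7L library. Of the 8 called genes of amino acid catabolism, Bhmt was the only one still called without either P7L library. Agxt, Cdo1 and Tdo2 also lost their calls without the G0 liver tissue library, and Gpt2 and Slc38a4 without the G0 perfusion library.

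Of 27 tested members of insulin and glucagon signalling 1 was called, against 2.92% of all tested genes. It was the adaptor Grb14 (-0.64 ± 0.13, edgeR adjusted p = 0.0481). It lost its call without either P7L library and without the G0 perfusion library.

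Among secreted plasma proteins, Alb, the gene of albumin, rose while genes of several other proteins fell. Alb took 0.351% and 0.359% of all reads at G0 and 0.709% and 0.756% at P7L (0.97 ± 0.13, edgeR adjusted p = 0.0223). The middle 50% of nuclei lay between 1393 and 5816 CPM in G0 liver tissue and between 5367 and 9051 CPM in P7L liver tissue. The P7L range was thus higher and narrower in this preparation. In perfusion the corresponding ranges were 1067 to 6446 CPM and 5237 to 10380 CPM, which are of similar width. Without the P7L perfusion library the call was lost. Ahsg, fetuin-A, fell from 1740 and 1828 to 823 and 1096 CPM (-0.91 ± 0.12, edgeR adjusted p = 0.0188). Serpina7, the gene of thyroxine-binding globulin, had 3.27 and 2.86 CPM at G0 against 0.0894 and 0.0378 at P7L (-5.60 ± 0.83, edgeR adjusted p = 0.0249), and reads were seen in 9.71% and 10.5% of nuclei against 0.34% and 0.676%. Ahsg and Serpina7 lost their calls without either P7L library.

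Acute phase proteins, which the liver releases during inflammation, were lower in 6 of 31 tested members and higher in 1, and complement components were lower in 4 of 25. C3 counts in both lists. C3, the central complement protein, had 506 and 497 CPM at G0 against 165 and 147 at P7L (-1.69 ± 0.14, edgeR adjusted p = 0.00383). Cfi (-0.69 ± 0.13) and the lectin Mbl2 (-0.98 ± 0.17) were lower as well. Fgg, the fibrinogen gamma chain, fell from 443 and 420 to 209 and 278 CPM (-0.83 ± 0.15, edgeR adjusted p = 0.0365). The inter-alpha-trypsin inhibitor chains Itih4 (-1.08 ± 0.17), Itih3 (-1.18 ± 0.17) and Itih1 (-1.02 ± 0.17) lie next to each other on chromosome 14 from 30886476 to 30943289 and were all lower, as was Itih2 (-1.19 ± 0.15). The murinoglobulin genes Mug1 (-0.79 ± 0.14), Mug2 (-1.42 ± 0.16) and the pseudogene Mug-ps1 (-1.32 ± 0.15) on chromosome 6 were lower too, although 32.9% to 50.5% of their 50-base stretches occur in other genes. Itih1, Itih2 and the murinoglobulins were chosen after their values were seen. The higher member was Il6ra, the interleukin 6 receptor, from 245 and 225 to 401 and 377 CPM (0.73 ± 0.12, edgeR adjusted p = 0.0313). Of the called acute phase and complement genes, C3 alone remained called without either P7L library. Cfi, Mbl2, Fgg, Itih1 and Mug1 were also lost without the G0 liver tissue library.

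Genes of iron handling were lower in 3 of 27 tested members of the metal list, and 1 was higher. Hamp and Cp were also counted among the lower acute phase genes. Hamp, the gene of hepcidin, which blocks iron export, had 1874 and 2397 CPM at G0 against 750 and 702 at P7L (-1.57 ± 0.21, edgeR adjusted p = 0.0209), beside 205 and 134 CPM at G14.5. Slc40a1, the iron exporter ferroportin, had 110 and 91.6 against 42.4 and 49.6 CPM (-1.14 ± 0.19, edgeR adjusted p = 0.033). Cp, ceruloplasmin, had 627 and 746 against 396 and 376 CPM (-0.82 ± 0.12, edgeR adjusted p = 0.0225). The hormone and its target exporter were therefore both lower in lactation. Mt1, a metallothionein, was called higher (0.75 ± 0.11, edgeR adjusted p = 0.0245), but at 221 and 405 CPM against 377 and 674 CPM its libraries overlapped between stages and separated by preparation. None of the 4 remained called without either P7L library, and Slc40a1 was also lost without the G0 liver tissue library.

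Immediate early genes, which are induced within minutes by many stimuli, were lower in 3 of 22 tested members. Egr1, a zinc finger transcription factor, had 120 and 170 CPM at G0 against 8.66 and 28.6 at P7L (-3.15 ± 0.33, edgeR adjusted p = 0.00845). Its share of nuclei with reads went from 73.8% to 21.1% in liver tissue but was 49.2% and 50.7% in perfusion. Fos had 1.68 and 15.1 CPM at G0 against 0.14 and 0.192 at P7L (-4.76 ± 0.91, edgeR adjusted p = 0.0441), so the G0 perfusion library carried most of its reads. It met the filter for testing, reads in 5% of nuclei in 2 libraries, only through the G0 libraries. Dusp1, a phosphatase of MAP kinases, had 25.7 and 59.8 against 9.33 and 28.0 CPM (-1.28 ± 0.25, edgeR adjusted p = 0.0446), and its stages overlapped. Its share of nuclei went from 43.0% to 28.6% in liver tissue and from 45.9% to 58.8% in perfusion. In liver tissue the list's median was -1.36, and in perfusion -0.16. Without the P7L liver tissue library Egr1 and Fos remained called, and without the P7L perfusion library only Egr1 did. Fos lost its call without the G0 perfusion library and Dusp1 without either G0 library. Spry4, a feedback inhibitor of receptor tyrosine kinases, had 24.7 and 46.0 against 8.64 and 14.6 CPM and missed the threshold (-1.59 ± 0.32, edgeR adjusted p = 0.051).

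Further leading lower genes had mixed roles. Wsb1, a subunit of a ubiquitin ligase with a SOCS box, had 975 and 874 CPM at G0 against 143 and 148 at P7L (-2.66 ± 0.12, edgeR adjusted p = 0.00064), and it was called in all 19 alternatives together with Cyp2c69, Cyp2c70 and Sult2a3. Actb, the gene of beta-actin and a common reference gene, had 597 and 428 against 108 and 104 CPM (-2.25 ± 0.16, edgeR adjusted p = 0.00305). It was the only called gene among 27 tested genes of the actin cytoskeleton, against 2.92% of all tested genes. Its share of nuclei with reads was 97.2% or more in all 4 libraries, so the difference lay in reads per nucleus, with medians of 390 and 211 CPM at G0 and 82.0 and 64.9 CPM at P7L. Adamts6, a secreted metalloprotease, went from 182 and 180 to 39.9 and 42.7 CPM (-2.13 ± 0.16, edgeR adjusted p = 0.00305). Ildr2 had 197 and 138 against 39.8 and 36.4 CPM (-2.12 ± 0.19, edgeR adjusted p = 0.00543), and Rtn4rl1 75.6 and 84.5 against 21.2 and 21.4 CPM (-1.90 ± 0.19, edgeR adjusted p = 0.00774). Cyp2j9, a cytochrome that epoxidises fatty acids and 1 of the 7 lower drug-metabolising members above, had reads in 60.3% and 63.0% of nuclei at G0 and in 33.7% and 33.5% at P7L. Of these 6 genes Cyp2j9 lost its call without either P7L library and Rtn4rl1 without the P7L perfusion library, and Cyp2j9 also lost it without the G0 liver tissue library.

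Among the leading higher genes, chosen for the size of their change and their level at P7L, Chrna4, a subunit of the neuronal nicotinic acetylcholine receptor on chromosome 2 from 181018380 to 181043546, had 3.87 and 8.27 CPM at G0 against 84.2 and 110 at P7L (4.06 ± 0.29, edgeR adjusted p = 0.00305). Its reads occurred in 11.4% and 16.0% of nuclei at G0 and in 86.0% and 87.8% at P7L, and G14.5 stood between with 52.1 and 57.8 CPM. Blm, the helicase mutated in Bloom syndrome, on chromosome 7 from 80454733 to 80535119, had 26.5 and 30.6 against 125 and 158 CPM (2.31 ± 0.17, edgeR adjusted p = 0.00305). It had reads in 52.7% and 44.2% of nuclei at G0 and in 98.3% and 97.6% at P7L. Tgfbr2, a receptor of transforming growth factor beta, had 15.4 and 16.7 against 75.5 and 82.1 CPM (2.29 ± 0.21, edgeR adjusted p = 0.00543), and reads were seen in 32.1% and 28.2% of nuclei against 90.1% and 90.5%. For these 3 genes the intervals of the shares did not overlap between stages. The intervals cover only counting error over the nuclei of a library, so this is not a test between stages. The genes were also chosen for reads in 20% or more of nuclei at P7L, which favours separated shares. Pvt1, a long noncoding RNA gene next to Myc, had 22.5 and 20.4 against 143 and 112 CPM (2.57 ± 0.20, edgeR adjusted p = 0.00319), and Pdxk, which makes the active form of pyridoxine, 10.4 and 11.7 against 49.3 and 56.4 CPM (2.26 ± 0.39, edgeR adjusted p = 0.0334). Pde6c, Col4a3, Capn11, Atg16l2 and Slc24a3 rose by log2 fold changes of 2.15 ± 0.39, 2.03 ± 0.28, 2.39 ± 0.34, 2.06 ± 0.31 and 2.40 ± 0.16. Slc24a3, a sodium, calcium and potassium exchanger, had 22.1 and 24.1 CPM at P7L next to 256 and 303 CPM at G14.5. Of the genes in this paragraph Chrna4, Blm, Pvt1 and Slc24a3 remained called without either P7L library, Tgfbr2 lost its call without the P7L perfusion library, and the others lost theirs in both cases, Pdxk also without the G0 liver tissue library.

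**Figure D4:**
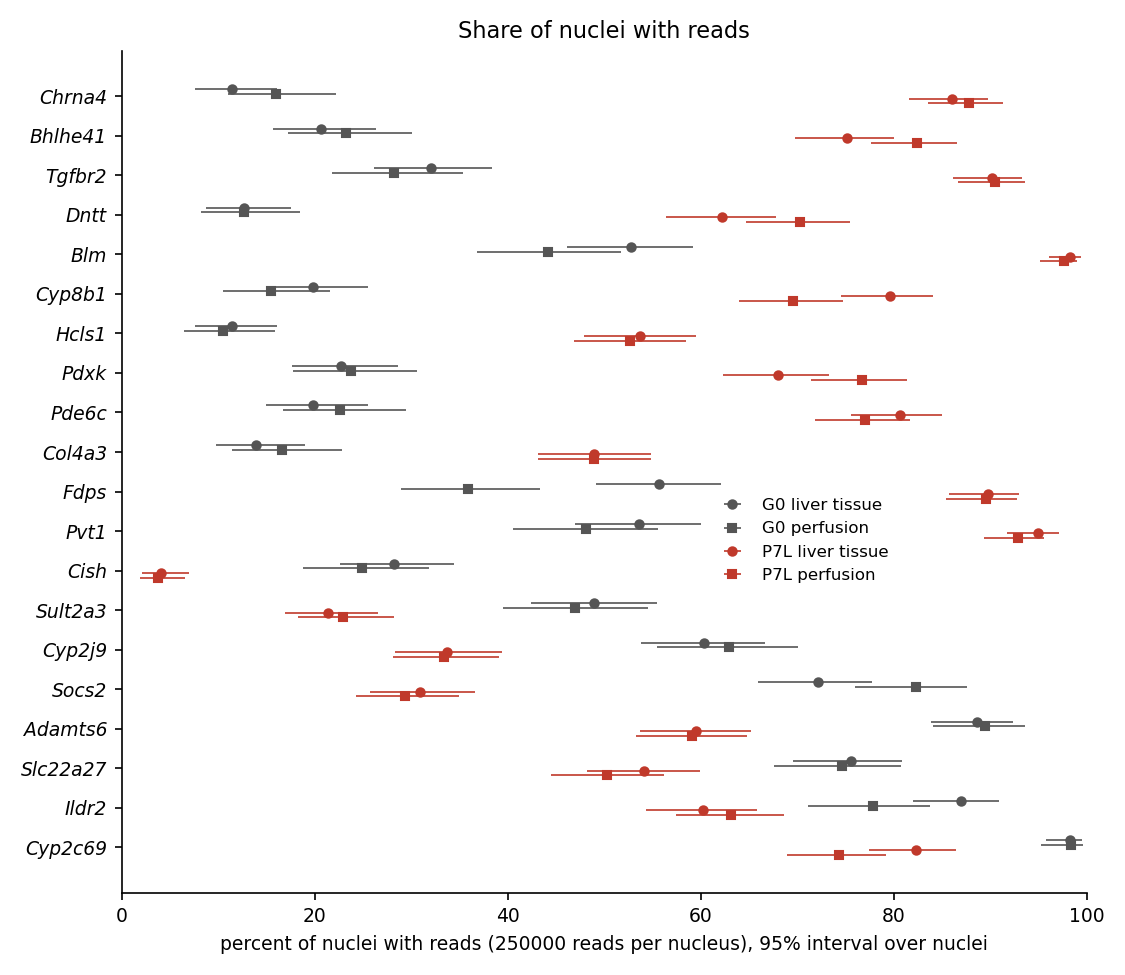
Percent of nuclei with at least 1 read of each gene after reduction to 250000 reads per nucleus, in G0 (grey) and P7L (red) liver tissue (circles) and perfusion (squares), with exact 95% intervals over nuclei. Chrna4 goes from 11.4% and 16.0% to 86.0% and 87.8%, and Cish from 28.3% and 24.9% to 4.08% and 3.72%. The preparations lie apart for some genes, such as Fdps at G0 with 55.7% in liver tissue and 35.9% in perfusion.

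Among the higher genes were 2 that are known from lymphoid cells. Dntt, terminal deoxynucleotidyl transferase, which adds bases at antigen receptor junctions, had 8.66 and 6.51 CPM at G0 against 38.6 and 58.4 at P7L (2.65 ± 0.32, edgeR adjusted p = 0.0141), with reads in 12.7% of nuclei in both G0 libraries and in 62.2% and 70.3% at P7L. Hcls1, a cortactin-like signalling protein of blood cells, had 2.51 and 1.57 against 22.4 and 22.0 CPM (3.47 ± 0.40, edgeR adjusted p = 0.0129), with reads in 11.4% and 10.5% against 53.7% and 52.7% of nuclei. Without reduction of depth Dntt had reads in 39 and 36 nuclei at G0 and in 212 and 226 at P7L. The median share of hepatocyte marker reads in these nuclei was 1.81% and 1.90% at G0 and 1.71% and 1.93% at P7L. Reads of at least 1 of 11 lymphoid markers occurred in 14 and 26 of them at G0 and in 69 and 75 at P7L. For Hcls1 such reads occurred in 17 of 34 and 20 of 28 nuclei at G0 and in 61 of 191 and 64 of 183 at P7L. Among all nuclei at G0, such reads occurred in 111 of 252 and 106 of 184. At P7L they occurred in 104 of 308 and 109 of 298. The T and NK cell markers together were at 3.5 and 4.81 against 6.21 and 7.77 CPM. Rag1, the recombinase of developing lymphocytes, was at 0. Alb had reads in all nuclei of all 4 libraries, so it does not separate nuclei, and the part of lymphoid cells in these results was not tested. Without the P7L liver tissue library Dntt remained called and Hcls1 did not, and without the P7L perfusion library neither did.

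Of 34 tested genes of DNA replication and mitosis 28 had a positive log2 fold change, against 7581 of 15015 for all tested genes, and the median was 1.78. Testing needed reads in 5% of nuclei in 2 libraries of any stage. A gene rare at G0 could thus enter only through stages where it was high, which favours positive values in this list. By edgeR 3 were called higher and 1 lower, whereas DESeq2 called 13 higher and 2 lower and limma-voom 4 and 1. Mki67, a marker of cycling cells, had 0.781 and 0.111 CPM at G0 against 5.86 and 4.16 at P7L (3.89 ± 0.69, edgeR adjusted p = 0.0366), and reads were seen in 2.11% and 2.21% of nuclei against 12.6% and 10.5%. Top2a, a topoisomerase, had 1.81 and 0.493 against 7.16 and 3.60 CPM (2.42 ± 0.42, edgeR adjusted p = 0.0347), and Mcm2, part of the replicative helicase, 0.075 and 0.0398 against 2.26 and 1.01 CPM (4.79 ± 0.81, edgeR adjusted p = 0.0317). Each was found in a minority of nuclei at both stages, Mcm2 in 0.42% and 0.55% at G0 and in 5.78% and 5.41% at P7L. E2f8, a repressor linked to polyploid hepatocytes, went down from 6.17 and 7.68 to 1.19 and 1.55 CPM (-2.33 ± 0.44, edgeR adjusted p = 0.0421). Cdkn1b, a cell cycle inhibitor, fell from 70.1 and 66.3 to 26.2 and 26.9 CPM (-1.36 ± 0.20, edgeR adjusted p = 0.0245), while its share of nuclei with reads was 67.9% and 66.3% at G0 and 78.9% and 78.0% at P7L. None of these 5 remained called without either P7L library, and E2f8 and Mcm2 lost their calls without either G0 library and Top2a without the G0 perfusion library.

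Transcription factors and nuclear receptors changed in a few members. Hnf4a, a master regulator of hepatocyte identity, had 360 and 366 CPM at G0 against 200 and 241 at P7L (-0.73 ± 0.13, edgeR adjusted p = 0.0369). It was the only called gene among 24 tested hepatocyte transcription factors, against 2.92% of all tested genes. Foxa2, a pioneer factor, had 26.7 and 27.2 against 10.8 and 11.3 CPM and missed the threshold (-1.29 ± 0.27, edgeR adjusted p = 0.0547). Of 30 tested nuclear receptors, Esr1, the oestrogen receptor, was lower at 228 and 275 against 446 and 432 CPM (-0.81 ± 0.13, edgeR adjusted p = 0.0284). Nr1i3, the xenobiotic sensor CAR, was higher at 160 and 171 against 72.2 and 77.3 CPM (1.15 ± 0.17, edgeR adjusted p = 0.026), and so was the retinoic acid receptor Rarb (1.25 ± 0.22). Both overlap a gene on the opposite strand. None of these 4 called genes remained called without either P7L library, and without the G0 liver tissue library Hnf4a and Rarb were lost too.

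Of 24 tested genes of the circadian clock and its outputs, 2 were higher. Bhlhe41, a repressor in the clock, had 42.6 and 51.8 CPM at G0 against 119 and 152 at P7L (1.52 ± 0.17, edgeR adjusted p = 0.0113). Its reads occurred in 20.7% and 23.2% of nuclei at G0 and in 75.2% and 82.4% at P7L, and the median per nucleus went from 0 to 30.7 and 98.9 CPM. Ccrn4l, the deadenylase nocturnin, rose from 104 and 60.4 to 227 and 300 CPM (1.69 ± 0.28, edgeR adjusted p = 0.0313). The labels give no time of day for any library. Part of the Bhlhe41 promoter is shown because it holds the E-box letters CACGTG, which are bound by clock proteins. It runs 5′ to 3′ on the minus strand at chr6:145865559-145865670 (GRCm38.p6, RefSeq), with the E-box in capitals, beginning 153 bases before the RefSeq start site.
Bhlhe41: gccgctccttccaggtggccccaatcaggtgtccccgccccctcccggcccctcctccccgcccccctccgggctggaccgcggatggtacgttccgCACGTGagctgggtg
The E-box, its own reverse complement, was found in 7.15% of all searched windows. Counted by gene, any window held it in 11.1% of tested genes, 10.5% of genes called higher and 9.62% of genes called lower. Bhlhe41 lost its call without either P7L library, and Ccrn4l without the P7L perfusion library.

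Of 24 tested receptors and ligands of the EGF, HGF, FGF and VEGF families, 1 was called, against 2.92% of all tested genes. Nrg4, a ligand of the receptor ErbB4, had 183 and 162 CPM at G0 against 583 and 643 at P7L (1.82 ± 0.21, edgeR adjusted p = 0.0129), beside 90.7 and 148 CPM at G14.5. Both P7L libraries were above all 4 others, and the call remained without either P7L library. Its gene overlaps Fbxo22 on the opposite strand. Among hepatokines, Fgl1, a ligand of an immune checkpoint receptor, went from 159 and 214 to 69.2 and 85.4 CPM (-1.27 ± 0.19, edgeR adjusted p = 0.0245) and lost its call without either P7L library. Igf1 and Ahsg were the other called members of 25 tested. Robo1, a guidance receptor, had 93.2 and 141 against 437 and 406 CPM (1.86 ± 0.20, edgeR adjusted p = 0.00888), and Sorcs3, a sorting receptor, 0.763 and 1.19 against 16.9 and 18.5 CPM (4.21 ± 0.21, edgeR adjusted p = 0.000905), both chosen after their values were seen.

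**Figure D5:**
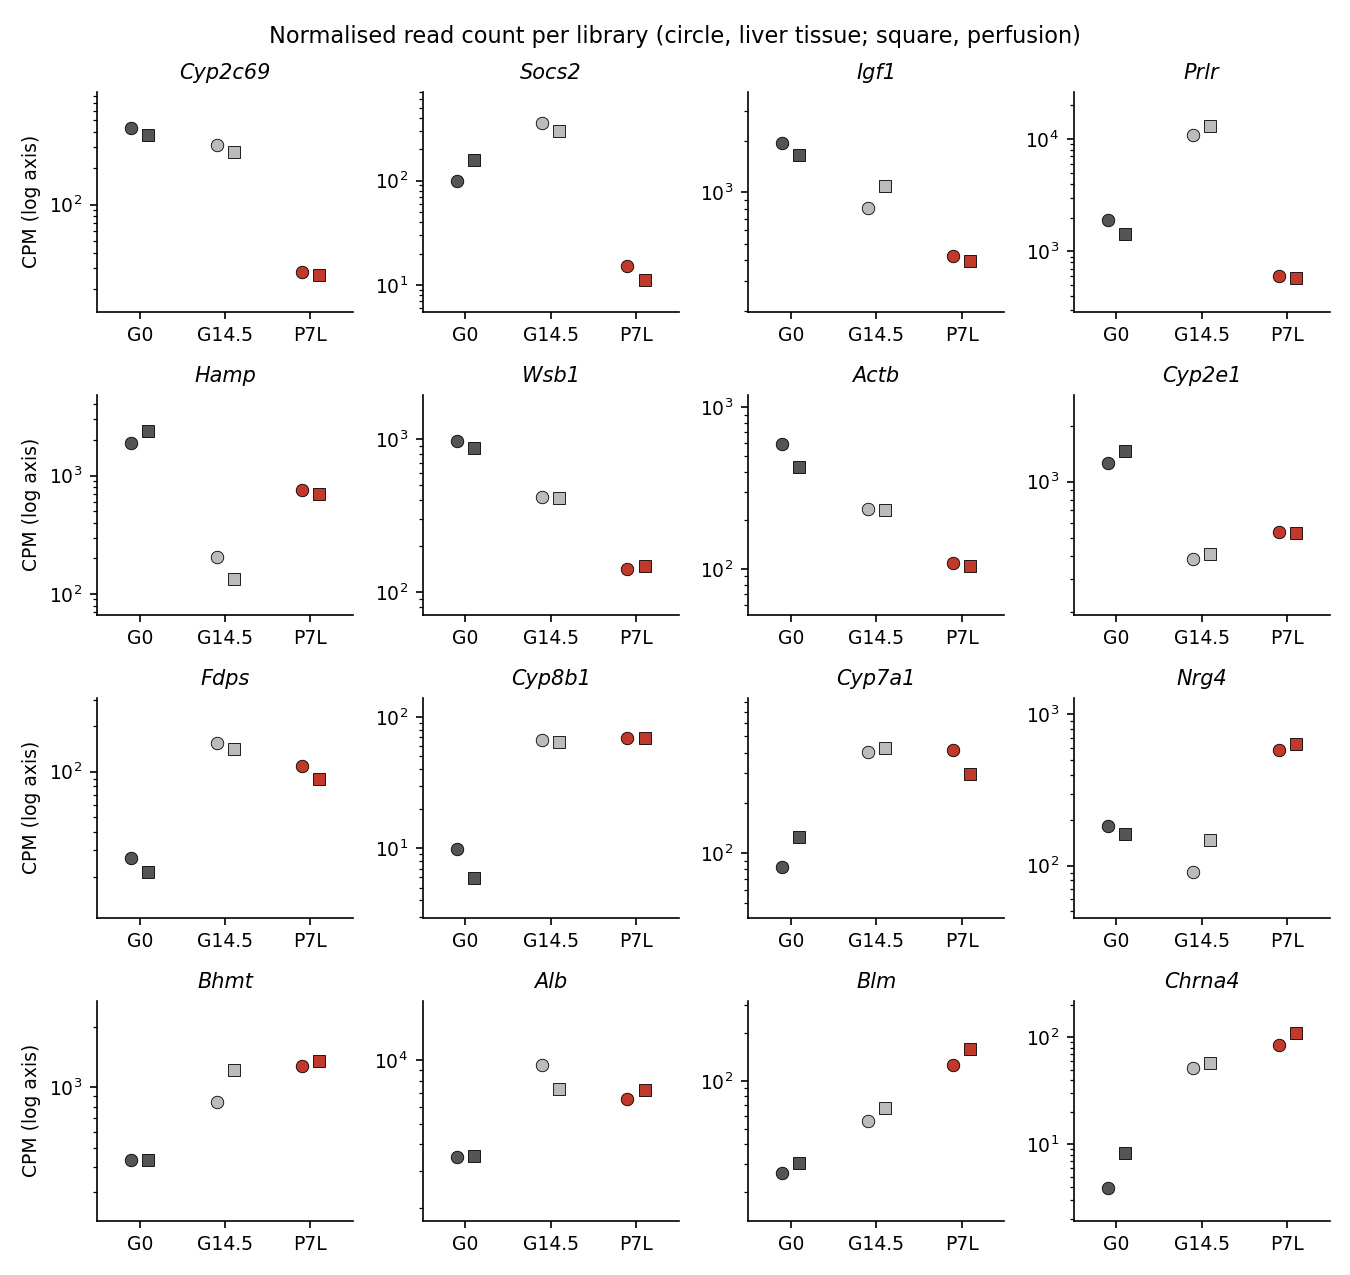
Normalised read count in CPM on a logarithmic axis for 16 genes in G0, G14.5 and P7L libraries, with circles for liver tissue and squares for perfusion. Igf1 and Wsb1 decline from G0 through G14.5 to P7L, whereas Prlr at 605 and 583 CPM in P7L lies below G0 after a much higher level at G14.5.

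Nuclear long noncoding RNAs gave 2 called genes among 13 tested. Malat1, the gene with the most reads in these nuclei, took 2.92% and 2.86% of all reads at G0 and 1.91% and 1.79% at P7L (-0.73 ± 0.10, edgeR adjusted p = 0.0223). Pvt1 was the other. Neat1, which builds paraspeckles, had 1633 and 931 CPM at G0 and 1149 and 2178 CPM at P7L and was not called (0.37 ± 0.35, edgeR adjusted p = 0.577). Its stages overlapped, since the liver tissue library was lower and the perfusion library higher at P7L. Malat1 lost its call without either P7L library.

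Some pathways gave no called gene in edgeR. In heat shock genes 0 of 13 tested members were called, with 0 higher and 2 lower at an unadjusted p under 0.05 and 0 by DESeq2 or limma-voom. In the unfolded protein response and secretory pathway 0 of 33 were called, with 3 higher and 8 lower at an unadjusted p under 0.05, and DESeq2 called 1 higher and 5 lower and limma-voom 0. The endoplasmic reticulum chaperone Hspa5 had 46.7 and 55.7 CPM at G0 against 27.9 and 29.4 at P7L (-0.84 ± 0.22, edgeR adjusted p = 0.0871). In the respiratory chain 0 of 22 were called (2 higher and 0 lower at an unadjusted p under 0.05, 1 by DESeq2, 0 by limma-voom). In ribosome biogenesis 0 of 22 were called (1 higher and 1 lower at an unadjusted p under 0.05, the same numbers by DESeq2, 0 by limma-voom), and in the interferon response 0 of 22 (2 higher and 1 lower at an unadjusted p under 0.05, 2 by DESeq2, 0 by limma-voom). Among fetal liver and imprinted genes 0 of 9 were called (1 higher and 1 lower at an unadjusted p under 0.05, 0 by either other tool), and Afp, alpha-fetoprotein, had 36.0 and 25.7 against 47.3 and 38.6 CPM. Pericentral genes had 2 of 25 tested members lower (Cyp2e1 and Cyp2c37), and periportal genes 4 of 27 higher and 2 lower, with medians of 0.01 and 0.13.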

How the data were processed

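The authors deposited raw read counts per gene and nucleus. Per the submitters' processing notes the genome was GRCm38 (mm10) and the tools were featureCounts 1.5.3, HISAT2 2.1.0 and Trimmomatic 0.39; the annotation, the use of strand or introns and the removal of nuclei are not given in the sources used here. The authors also deposited TPM-like values. By their sums, all genes other than Fabp1, Alb and Apoa2 add up to 100000 in each nucleus, and to between 100214 and 134901 once these 3 are included. The count table has 40824 genes and 92 ERCC spike-in rows, which held 0 reads and were left out, and no mitochondrial genes. No doublet caller was run, and 0 nuclei had the same counts as another. Nuclei are numbered within a library and carry no barcode sequence.

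Each library was reduced to 1 column of summed counts. Tested genes passed filterByExpr (grouped by stage) and were seen in 5% or more of the nuclei in 2 or more libraries. The edgeR 4.0.16 quasi-likelihood F test (R 4.3.3, TMM scaling, robust) used a model of stage plus preparation over 6 libraries, with 2 residual degrees of freedom, 5.13 prior ones and a common CV of 0.357. The contrast was P7L against G0, two-sided; called genes had p below 0.05 after Benjamini-Hochberg adjustment over 15015 genes. The SE is the log2 fold change divided by the square root of F. No test of stage by preparation was possible with 1 library for each combination. Tests were checked on simulated data.

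Shares of nuclei with reads rest on nuclei reduced to 250000 reads with a fixed seed, which left out 15 and 3 shallower nuclei at G0 and 14 and 2 at P7L. Medians per nucleus use all nuclei. Named genes are up to 15 higher and 15 lower called genes with the largest change, agreeing in sign between preparations; the stage with the higher level needed 20 CPM or more in each library and reads in 20% or more of nuclei, and gene models were passed over. To them were added up to 4 members of each of 45 lists with the smallest p and the called members of a list. The members, the lists and the tests were chosen with earlier results of these data known, and lists have no test. Neighbouring genes are at least 3 called in 1 direction with gaps of at most 500000 bases. Gene coordinates are from GENCODE M21 on GRCm38, promoters from RefSeq on GRCm38.p6. Sharing between genes is the percent of the 50-base stretches of the longest transcript found in transcripts of other genes. Genes not marked above that overlap a protein-coding gene on the opposite strand include Atg16l2, Cp, Dusp1, Fdft1, Pltp and Sult1a1. On the same strand Fdps, Prlr and Ugdh overlap gene models. Alternatives were RLE size factors, library size alone, 3 other filters, no term for preparation, the 4 libraries only, limma-voom (limma 3.58.1), DESeq2 1.42.0, thinned nuclei, nuclei with at least 1% hepatocyte marker reads, limma on library means of the authors' TPM-like values (log2, pseudocount 1 or 0.1), and leaving out each library. Some called genes are not reported here.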

Additional observations from a re-analysis of the deposited data

Results flagged for a closer look

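Neat1 and Stat5a moved in opposite directions in the preparations, each by at least 0.5 on the log2 scale. The log2 ratio of P7L over G0 for Neat1, a nuclear long noncoding RNA, was -0.51 in liver tissue and 1.23 in perfusion. For Stat5a, a transcription factor of the prolactin pathway, it was -1.35 in liver tissue and 0.78 in perfusion, with 41.2 and 14.2 CPM at G0 against 16.2 and 24.2 at P7L. The difference between preparations was not tested, since each combination has 1 library, and neither gene was called by edgeR (adjusted p = 0.577 for Neat1 and 0.696 for Stat5a). Stat5a overlaps Stat3 on the opposite strand and shares 10.8% of its 50-base stretches with other genes.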

How the results depend on the processing

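Of 438 genes called between P7L and G0, 4 were called in all 19 alternatives, 142 in at least 15 of them and 38 without each G0 and P7L library in turn. The number of called genes (total, higher, lower) was 92, 43 and 49 with filterByExpr alone, 987, 533 and 454 with reads required in 20% of nuclei, and 227, 130 and 97 with no filter. It was 1901, 1144 and 757 with DESeq2 and 758, 406 and 352 with nuclei thinned to 250000 reads. On the authors' values it was 4, 0 and 4 (pseudocount 1) or 205, 121 and 84 (pseudocount 0.1). Leaving out 1 library gave 46 to 609 genes in total, 27 to 326 higher and 19 to 283 lower, lowest without P7L replicate 2, at 46, and 75 without P7L replicate 1. The cause was not tested. The preparation is a labelled factor and the labels give no replicate numbers; without this replicate block 299 genes were higher and 279 lower, 578 in all. Library size alone put the median of all genes at 0.088. Leaving out 1 library moved Cps1 between -0.11 (reversed, without G0 replicate 2) and 0.26, Neat1 between -0.33 and 1.03 (reversed without G0 replicate 2, at -0.24, and P7L replicate 2) and Stat5a between -1.28 and 0.71 (reversed without G0 replicate 1 and, at 0.23, P7L replicate 1); none was called with all libraries. A stage left with 1 library is assumed to vary like the other stages. Over the 136 named called genes, 1889 alternative values kept the call and 691 lost it, none with a change of direction. At an unadjusted p under 0.05 there were 3183 genes, against 438 called. Shares of nuclei depend on depth: 592 of 1328 values moved with 500000 reads per nucleus or without thinning.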

Other observations

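Called genes outside the lists above included enzymes that act on purines and on fatty acids. Uox, urate oxidase, had 902 and 947 CPM at G0 and 1464 and 1657 CPM at P7L (log2 fold change 0.75 ± 0.11 SE, edgeR adjusted p = 0.0232), and Adk, adenosine kinase, 11990 and 11700 against 8357 and 8734 CPM (-0.47 ± 0.09, edgeR adjusted p = 0.0481). Hacl1, which shortens branched fatty acids in peroxisomes, had 1380 and 1462 against 592 and 619 CPM (-1.23 ± 0.10, edgeR adjusted p = 0.00373), and Acnat1, an acyltransferase, 398 and 381 against 157 and 157 CPM (-1.31 ± 0.12, edgeR adjusted p = 0.00543). The galactosyltransferases B4galt1 and B3galt1 changed in opposite directions, B4galt1 from 351 and 422 to 146 and 148 CPM (-1.39 ± 0.13) and B3galt1 from 432 and 454 to 1054 and 1138 CPM (1.31 ± 0.11). These 6 genes were chosen after their values were seen. Hacl1 and B3galt1 remained called without each G0 and P7L library in turn. Acnat1 (edgeR adjusted p = 0.0592) and B4galt1 (edgeR adjusted p = 0.0665) lost the call without P7L replicate 2, Uox without either P7L library and Adk without either of these or G0 replicate 1. Hacl1 shares 52.4% of its 50-base stretches with other genes, mostly Gm49387, and Acnat1 35.1% with Acnat2, so their counts are uncertain; Uox overlaps Dnase2b on the opposite strand. Of the integrated stress response, the transcription factor Atf5 (-1.45 ± 0.25) and the lipoprotein receptor Vldlr (-2.54 ± 0.44) were lower among 19 tested members. Of vitamin handling, the ascorbate carrier Slc23a1 (1.40 ± 0.27) was higher together with Pdxk among 24 tested members. Atf5, Vldlr and Slc23a1 each lost the call without either P7L library and without G0 replicate 2, and Vldlr and Slc23a1 also without G0 replicate 1. Atf5 overlaps Nup62, and Slc23a1 Paip2, on the opposite strand.

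Vwf, the gene of von Willebrand factor, was called higher at P7L (1.88 ± 0.26, edgeR adjusted p = 0.0226) at a level of only 1.04 and 1.11 CPM, against 0.225 and 0.366 CPM at G0. The share of nuclei with reads was 6.75% and 6.08% at G0 and 5.44% and 8.11% at P7L, so the intervals of the shares overlapped. The call was lost without P7L replicate 1 (edgeR adjusted p = 0.0934) or 2 (edgeR adjusted p = 0.0967). At G14.5 the level was 115 and 117 CPM.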
